A study of Mus musculus with 14 samples.

Results

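The collagen genes were taken as every gene of the deposited CPM table whose symbol is Col, a type number, a and a chain number, which gave 41 of the 16181 protein-coding genes listed. Of these, 9 encode fibrillar collagens (types 1, 2, 3, 5 and 11), 6 encode basement membrane collagens (types 4, 15 and 18) and 26 encode other types. CPM is the count of a gene scaled by the total count of the listed genes in that library. The 32 collagens with at least 10 CPM in 1 or more libraries are given with their values, and the other 9 by their range. Col4a3, Col4a4 and Col10a1 are in the count table, which has 50686 genes, but not in the CPM table.

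The data are RNA-seq libraries from mouse ESCs and from embryoid bodies (EBs), aggregates in which ESCs differentiate spontaneously into derivatives of several lineages. The shLacZ line stably expressed an shRNA against LacZ, which is not a mouse gene, and the shDIS3L2 line an shRNA against the exonuclease DIS3L2, both in an ESC line that carries an Osr1-GFP reporter. ESCs kept in LIF and 2i were sampled as d0, and EBs, made in hanging drops in serum medium lacking LIF and 2i and then held in suspension, every second day to d12. Each line is 1 stable line sampled in 1 series, and each of the 7 days is 1 library of each line, 14 in all. Differences on one day therefore carry only a counting interval, which leaves out the variation between cultures, and no p-value.

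Each library had between 7178712 and 39888099 reads on all genes and between 6323043 and 31248277 on the listed genes, and 3 counts, taken as the floor, equal 0.096 to 0.474 CPM. The level of Dis3l2, the targeted gene, was 14.2% of that in shLacZ at d0 and 28.5, 32.2 and 55% at d2, d4 and d6. It was 96.9% at d8 (95% interval 83.5 to 112%), 95% at d10 (78.8 to 115%) and 75.4% at d12 (60.8 to 93.3%), so a lower level was not detectable at d8 and d10 in the libraries labelled shDIS3L2. Pou5f1, which encodes the pluripotency factor OCT4, stood at 1529 CPM (shLacZ) and 955 CPM (shDIS3L2) in the ESCs of d0. On d6, d8, d10 and d12 it was at 133, 183, 243 and 158 CPM in shLacZ and at 16.1, 20.7, 46.4 and 95.3 CPM in shDIS3L2. The 2 lines differed in scale at d0, where the median log2 ratio of shDIS3L2 to shLacZ over listed genes with at least 1 CPM was -0.26, against -0.05 to 0.05 on the other days.

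Collagens are secreted proteins in which 3 chains wind into a triple helix. Fibrillar collagens assemble outside the cell into the fibrils of connective tissue, while type IV collagen forms the sheet-like network of basement membranes, on which epithelia rest, and is made in large amounts by the extraembryonic endoderm that covers EBs. Chains are hydroxylated, glycosylated and folded in the ER, the propeptides of fibrillar collagens are removed outside the cell, and lysyl oxidases crosslink the fibrils.

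From d8 on the collagens as a whole took 1.13 to 1.31 times as large a share of the reads in shDIS3L2 as in shLacZ, but different genes made up that share. In shLacZ they took 0.0202, 0.0962, 0.16, 0.612, 1.14, 2 and 3.05% of the reads on listed genes on the 7 days in order. In shDIS3L2 the same share was 0.0218, 0.0817, 0.0796, 0.36, 1.46, 2.62 and 3.45%. The share was lower in shDIS3L2 at d2, d4 and d6, beyond counting error, with ratios of 0.849, 0.498 and 0.588. Fibrillar collagens held 52.2% of all collagen reads in shDIS3L2 at d12 and 3.52% in shLacZ. Basement membrane collagens held 39.7% in shDIS3L2 and 95.7% in shLacZ, and the other collagens 8.12 and 0.829%.

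**Figure D1:**
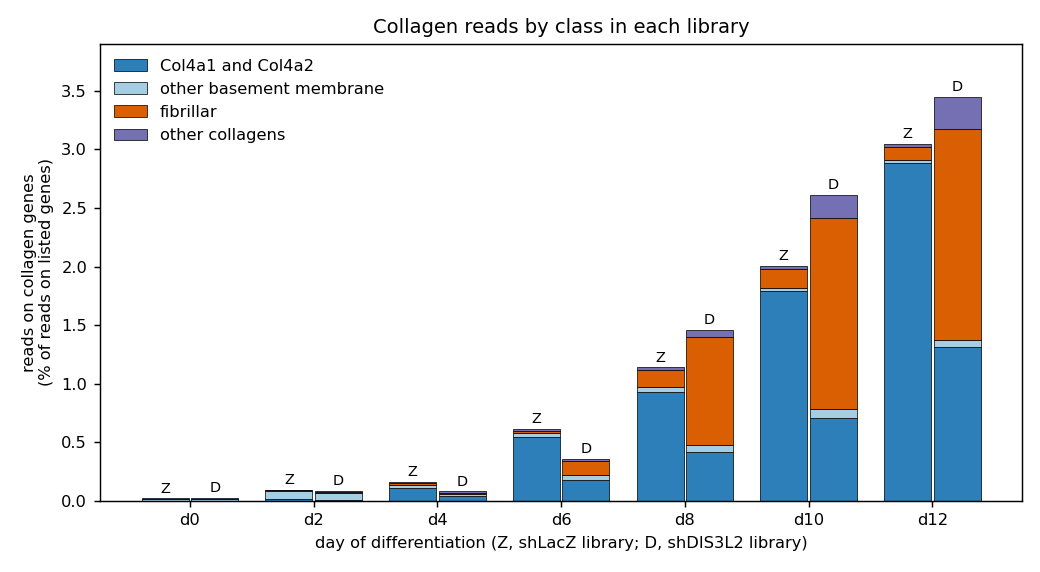
Reads on collagen genes as a percentage of the reads on listed genes (y axis), by class, in the shLacZ (Z) and shDIS3L2 (D) library of each day (x axis). At d12 the bars are 3.05 and 3.45% high, and the fibrillar part is 0.107% in shLacZ and 1.8% in shDIS3L2.

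Few collagens differed 3-fold between the lines before d6, although at d4 the counting interval lay below 1 for 15 collagens and above 1 for 4. How many of all listed genes had such intervals was not counted. A collagen was counted as higher or lower on a day when the lines differed at least 3-fold in CPM and the larger value was no less than 1 CPM. At d0, 0 of the 20 collagens compared were higher and 0 lower in shDIS3L2, against 0.722% and 2.17% of all listed genes compared. At d2 it was 0 and 0 of 29, against 0.127% and 0.187%. At d4, 1 of 34 was higher, against 0.364%, and 5 were lower, which is 14.7% against 1.83%. The median log2 ratio of shDIS3L2 to shLacZ at d4 was -0.85 for the fibrillar, -0.50 for the basement membrane and -0.31 for the other collagens. For all listed genes above the floor it was -0.01.

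From d6 the number of higher collagens grew with each sampled day. At d6, 10 of 33 were higher, against 2.78% of all listed genes compared, and 2 were lower, against 4.47%. At d8, 16 of 35 were higher, against 5.52%, and 0 were lower, against 3.96%. At d10, 23 of 36 were higher, against 8.69%, and 0 were lower, against 3.18%. At d12, 25 of 38 were higher, which is 65.8% against 8.11%, and 0 were lower, against 1.56%. A collagen that reached 1 CPM in shDIS3L2 alone could enter these counts as higher, so the share is a description, and 2 of the 25 at d12, 1 of the 23 at d10 and the 1 at d4 were at or below the floor in shLacZ.

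The 10 collagens higher on each of d6, d8, d10 and d12 were Col1a1, Col1a2, Col3a1, Col5a1, Col5a2, Col6a1, Col6a2, Col6a3, Col8a2 and Col12a1. How many of all listed genes were higher on each of these days was not counted, so this set is a description. The median log2 ratio of shDIS3L2 to shLacZ was 2.18, 2.18, 3.08 and 3.05 for the fibrillar collagens on these days and 0.26, 0.54, 1.36 and 1.0 for the basement membrane collagens. For the other collagens it was 0.69, 1.54, 1.89 and 2.80, and for all listed genes above the floor -0.02, 0.03, 0.03 and 0.05. The lowest of the 4 shDIS3L2 libraries of d6 to d12 lay above the highest of the 4 shLacZ libraries for 10 of 38 collagens, against 13.3% of listed genes, and the highest lay below the lowest for 0 of 38, against 10.8%. For the other 28 the ranges overlapped. Some of these changed greatly with the day, such as Col1a1 (36.6 to 396 CPM in shLacZ and 346 to 3910 CPM in shDIS3L2). Others were at similar levels in the lines, such as Col9a3 (1.74 to 3.81 CPM in shLacZ and 2.07 to 2.79 CPM in shDIS3L2). The lines are therefore compared day by day here.

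**Figure D2:**
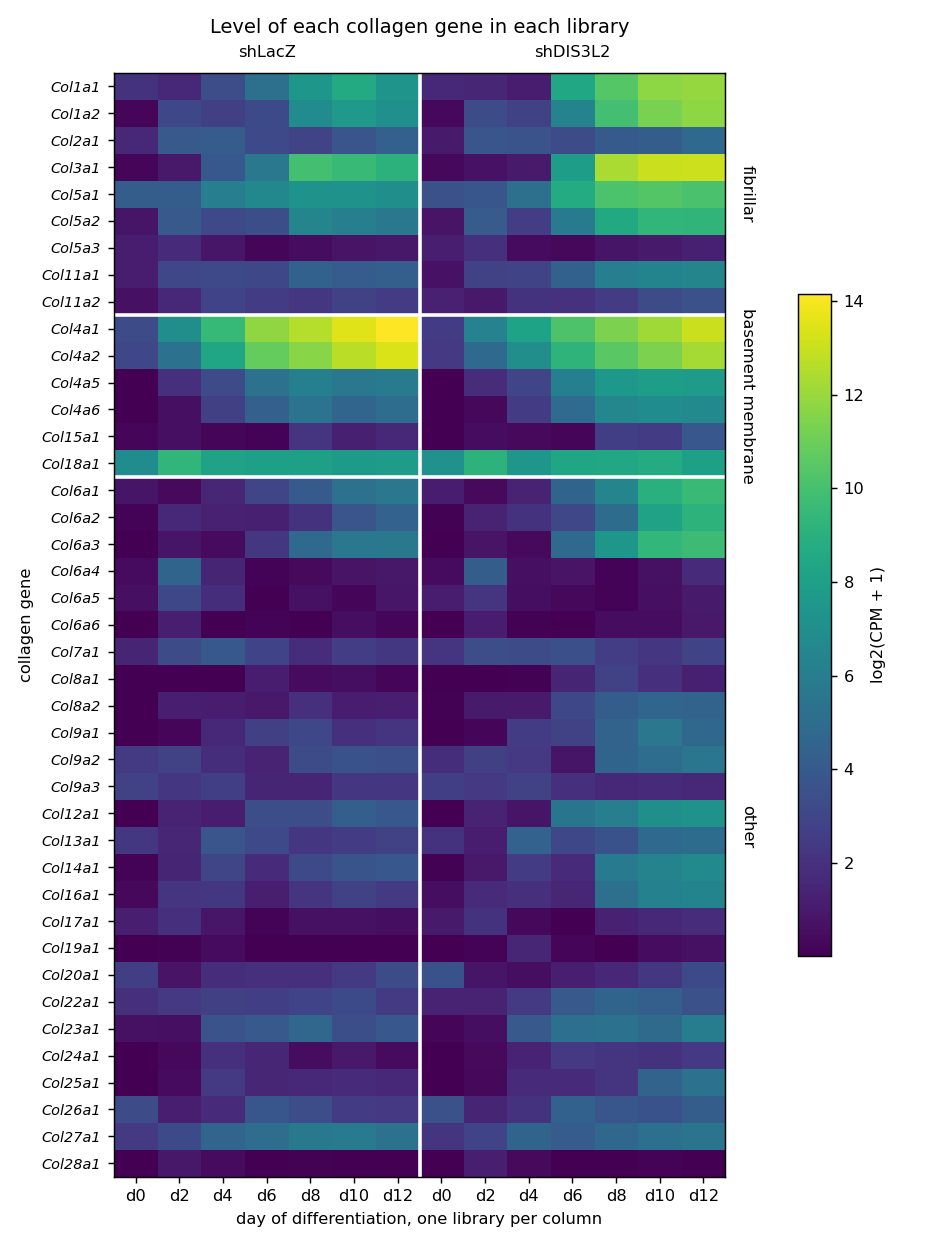
Level of each of the 41 collagen genes (y axis, by class) in each of the 14 libraries (x axis), as log2 of CPM plus 1. From d4 Col4a1 and Col4a2 are the brightest rows in shLacZ, while in shDIS3L2 Col1a1, Col1a2 and Col3a1 join them from d8.

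The late days (d6 to d12) were fitted together by edgeR's quasi-likelihood method on the count table, with the day blocked. Here 4 days of one series stand in for replicates, so the test compares these 2 series only, and other cultures of the lines were not sampled. Of the 36 collagens tested, 28 were called higher in shDIS3L2 and 3 lower (Benjamini-Hochberg adjusted p under 0.05), against 19.6% and 18.7% of the 17164 genes tested. By class, 7 of 9 fibrillar collagens were higher and 0 lower, 4 of 6 basement membrane collagens were higher and 2 lower, and 17 of the 21 other collagens tested were higher and 1 lower. Without d10, 18 of 35 collagens were higher and 2 lower, against 10.1% and 9.8% of all genes tested. Over all 7 days, 8 of 40 were higher and 2 lower, against 1.91% and 3.82%. With d6 and d12 alone, the late days on which Dis3l2 was detectably lower, edgeR called 0 of 34 collagens and 0 of 15950 genes. That fit has only 1 library per line on each of these 2 days. Since no gene at all passed, it cannot show whether the collagens differed on them. In the same fit, at an unadjusted p under 0.05, 19 collagens were higher and 2 lower. The share of all genes at that unadjusted threshold was not counted, so these 2 numbers cannot be read against it.

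Markers of cell types differed between the lines on the same days, and their counts are to be read against the 19.6% of all genes called higher and 18.7% called lower. Of 8 mesenchyme markers, 6 were called higher in shDIS3L2 and 0 lower by edgeR over d6 to d12, and their summed level was 364 to 864 CPM in the shLacZ libraries and 747 to 3915 CPM in the shDIS3L2 libraries. Postn, which encodes periostin, was at 23.8, 364, 203 and 133 CPM in shLacZ and at 280, 2450, 2038 and 871 CPM in shDIS3L2, and Lum, which encodes lumican, at 0.872, 66.3, 57.7 and 44.1 CPM and at 8.43, 474, 719 and 367 CPM. Pdgfra, the receptor that marks much of the mesenchyme, had a log2 fold of 0.17 (standard error 0.11) and was not called, while Dcn, which encodes decorin, had the largest log2 fold of the list, 4.15. Thy1, the other marker not called, had a log2 fold of -0.54 (standard error 0.47). Its ratios of shDIS3L2 to shLacZ were 0.344, 0.464, 0.506 and 2.61 on d6, d8, d10 and d12. None of the mesenchyme markers was at 0 in all of these libraries.

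Of 8 parietal endoderm markers, 0 were called higher and 6 lower, with a summed level of 4101 to 13725 CPM in shLacZ and 2026 to 8254 CPM in shDIS3L2. Sparc and Lamb1 had the highest levels of this list, 6316 and 5606 CPM in shLacZ at d12. Sparc is also counted among the genes for folding and modification of collagen chains below. Of 7 visceral endoderm markers, 0 were called higher and 7 lower, with a summed level of 3114 to 7558 CPM and 598 to 2123 CPM. Apob, an apolipoprotein of visceral endoderm, was at 911, 2729, 2962 and 1822 CPM in shLacZ and 153, 559, 753 and 419 CPM in shDIS3L2, and Lamb1, a laminin chain of basement membranes, at 927, 1577, 3202 and 5606 CPM and 530, 839, 1487 and 2950 CPM. The log2 folds of Dab2 and Pth1r in the first list were -1.53 and -1.04, and those of Cubn, Afp and Ttr in the second -2.13, -2.06 and -1.69. Gata6, also in the first list, had a log2 fold in the other direction, 0.25 (standard error 0.21), and was not called. Among the undifferentiated ESC markers 3 of 4 were called lower. Of the cardiomyocyte markers 3 of 4 were called higher, of the endothelial markers 2 of 5 higher, of the neural markers 1 higher and 2 lower of 4, and of the 2 bone markers tested 1 higher, with Bglap at or below the floor from d6 to d12. The part of the makeup of the EBs in the collagen levels was not tested.

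Among the fibrillar collagens, the chains of types I, III and V stood out. Col1a1 encodes the alpha 1 chain of type I collagen, the main collagen of bone, skin and tendon. The gene spans chr11:94936224-94953042 of GRCm38. It was at 3.21, 2.15, 9.05, 36.6, 180, 396 and 161 CPM in shLacZ from d0 to d12, and at 2.07, 1.87, 1.23, 346, 1397, 3402 and 3910 CPM in shDIS3L2. The shDIS3L2 library was the lower one at d4 and the higher one on each day from d6. The ratio was 9.46 (95% counting interval 8.56 to 10.5) at d6, 7.75 at d8, 8.59 at d10 and 24.2 (23 to 25.6) at d12. At d4 it was 0.136 (0.0783 to 0.224). The log2 fold over d6 to d12 was 3.46 with a standard error of 0.28 (edgeR quasi-likelihood test, Benjamini-Hochberg adjusted p = 0.0005). This call was lost over all 7 days and with d6 and d12 alone, where no gene was called. In bulk RNA, more cells that express a gene and more RNA per cell cannot be told apart.

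Col1a2 encodes the other chain of type I collagen. Its level was 0.136, 7.6, 5.41, 8.18, 111, 204 and 139 CPM in shLacZ over the 7 days and 0.264, 8.8, 5.8, 79.7, 963, 2489 and 3439 CPM in shDIS3L2. The lines lay close together to d4 (ratio 1.07, 0.725 to 1.64) and apart from d6. The ratio was 9.74 at d6, 8.67 at d8, 12.2 at d10 and 24.8 (23.4 to 26.2) at d12. From d8 to d12 both type I chains went up further in shDIS3L2, while in shLacZ both were highest at d10.

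Col3a1, the single chain of type III collagen of extensible tissues such as vessels, was at 0.2, 0.97, 13.9, 49.2, 969, 777 and 545 CPM in shLacZ. In shDIS3L2 it was at 0.264, 0.614, 1.01, 235, 5209, 8374 and 8771 CPM. It was lower in shDIS3L2 at d4, at 0.0721 of the shLacZ level (0.0404 to 0.119), and higher from d6, by 4.78-, 5.37-, 10.8- and 16.1-fold (15.6 to 16.6 at d12). By CPM it ranked 2 among all listed genes in shDIS3L2 at d12 and 153 in shLacZ. Its exons share 141 bases (1.44%) with Gm47302, so a small part of its reads may be assigned differently.

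Type V collagen chains take part in the nucleation of type I fibrils. Col5a1 was at 17.5, 17.5, 64.8, 97.4, 147, 155 and 134 CPM in shLacZ and at 10.6, 12.9, 36, 421, 1129, 1313 and 1107 CPM in shDIS3L2. Of the 41 collagens it was the only one with an interval below 1 on each of d0, d2 and d4 and above 1 on each of d6, d8, d10 and d12. Its ratio was 0.604, 0.74 and 0.555 on the first 3 days and 4.33, 7.67, 8.45 and 8.29 on the other 4. Col5a2 was at 0.776, 14.4, 7.78, 9.8, 86, 66.3 and 49.9 CPM in shLacZ and at 0.665, 15.6, 5.03, 54.2, 391, 646 and 624 CPM in shDIS3L2. It was 5.53-, 4.55-, 9.74- and 12.5-fold higher on d6 to d12, with no detectable difference at d0 and d2. At d4 it was lower, with a ratio of 0.646 (0.453 to 0.936). Of the exon bases of Col5a1, 2.5% are shared with genes on the other strand, and whether strand was used in counting is not given in the sources used here. Col5a3, the third chain, did not exceed 2.85 CPM in any library.

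**Figure D3:**
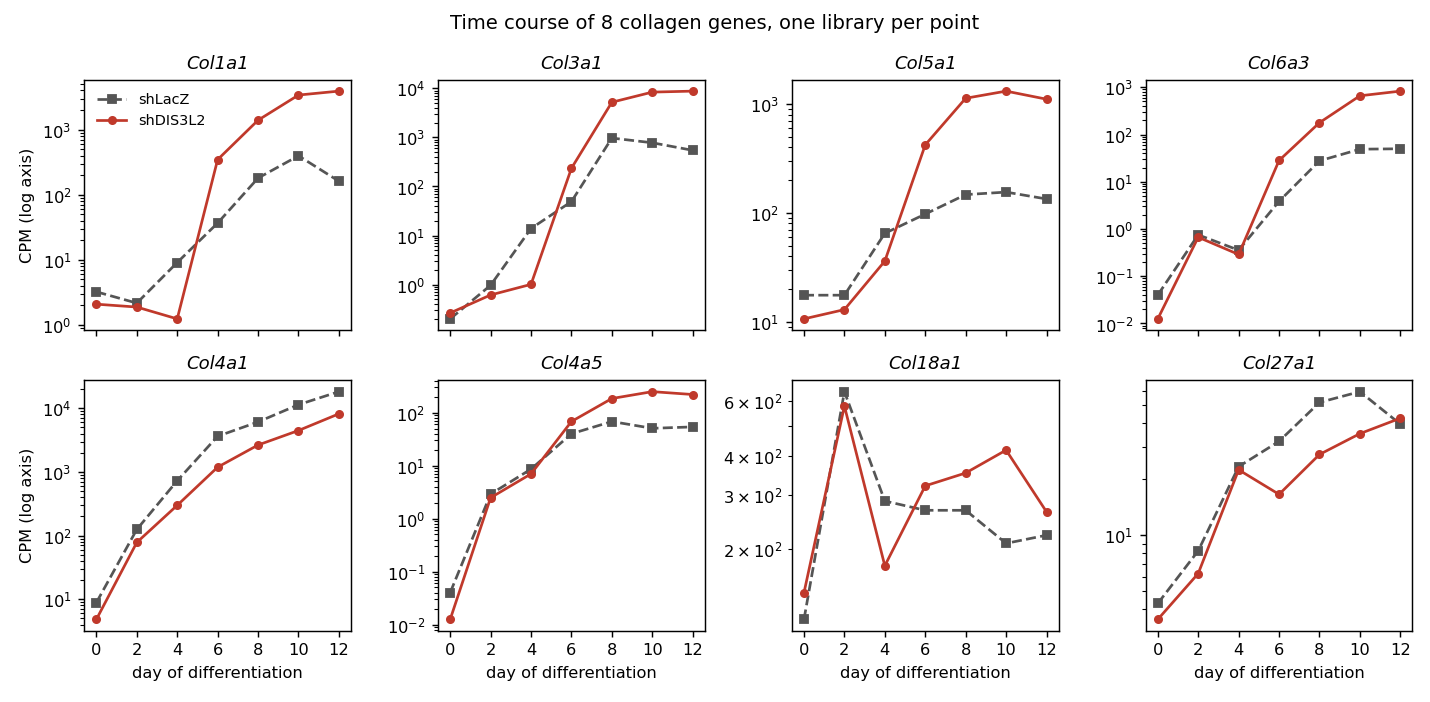
Level in CPM (y axis, log scale, a separate range in each panel) of 8 collagen genes by day (x axis), with 1 library per point, in shLacZ (squares, dashed) and shDIS3L2 (circles, solid). The lines cross between d4 and d6 for Col1a1, Col3a1 and Col5a1, while Col4a1 is lower in shDIS3L2 on each of the 7 days.

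The remaining fibrillar collagens are those of cartilage. Col2a1, the chain of type II collagen, was at 1.99, 14.7, 16.2, 7.84, 6.4, 12.2 and 19.1 CPM in shLacZ and at 1.07, 12.2, 11.3, 8.64, 14.9, 16.9 and 28.1 CPM in shDIS3L2. Its ratio was 1.1 (0.807 to 1.5) at d6, 2.33 (1.84 to 2.98) at d8, 1.39 at d10 and 1.47 (1.21 to 1.79) at d12, and its call in edgeR (log2 fold 0.60, standard error 0.19, Benjamini-Hochberg adjusted p = 0.04) was lost when d8, d10 or d12 was left out. Col11a1, a chain of type XI collagen, was at 1.19, 7.16, 7.63, 7.5, 19.8, 16.5 and 18.7 CPM in shLacZ and at 0.615, 5.91, 6.52, 20.1, 65.8, 83.2 and 86.1 CPM in shDIS3L2. It was higher in shDIS3L2 on each day from d6, by 2.68-, 3.33-, 5.04- and 4.61-fold. Col11a2 was at 0.552, 1.97, 6.2, 4.61, 3.8, 5.7 and 4.85 CPM in shLacZ and at 1.47, 0.941, 3.27, 3.01, 4.63, 8.84 and 10.6 CPM in shDIS3L2, and its log2 fold of 0.39 (standard error 0.28) did not pass the edgeR test (adjusted p = 0.318). Of these 3 chains Col11a1 alone passed the 3-fold criterion, and the marker list of cartilage (Sox9, Acan, Matn1, Hapln1 and Comp) had 0 of its 3 tested genes called higher and 0 lower by edgeR.

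The basement membrane collagens did not move together. Col4a1 and Col4a2 encode the chains of the most widespread type IV collagen and were the 2 most abundant collagens in shLacZ from d4 on, per read and per kilobase. Col4a1 was at 8.87, 125, 727, 3634, 6100, 11375 and 18236 CPM in shLacZ, where it had the most reads of all listed genes at d12. In shDIS3L2 it was at 4.83, 78.1, 299, 1188, 2647, 4473 and 8181 CPM, lower on each of the 7 days. Col4a2 was at 7.05, 38.2, 326, 1813, 3198, 6494 and 10602 CPM in shLacZ and at 4.08, 28.3, 126, 585, 1496, 2588 and 4890 CPM in shDIS3L2, also lower on all 7 days. In both lines these chains were highest at d12.

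The ratio of shDIS3L2 to shLacZ was 0.412, 0.327, 0.434, 0.393 and 0.449 for Col4a1 from d4 to d12, and 0.386, 0.323, 0.468, 0.399 and 0.461 for Col4a2. On d6 both were past the 3-fold criterion, and on the other days they were not. The log2 fold over d6 to d12 was -1.34 (standard error 0.09) for Col4a1 and -1.30 (0.10) for Col4a2, with adjusted p-values of 0.000339 and 0.000453 in edgeR's quasi-likelihood test with Benjamini-Hochberg adjustment. Both calls held over all 7 days and with each late day left out in turn. They were lost with d6 and d12 alone, where no gene was called. Both genes lie on chromosome 8, where the median log2 ratio of listed genes with at least 1 CPM was -0.37, -0.30, -0.37 and -0.33 on d6 to d12, against -0.01, 0.03, 0.01 and 0.05 for all chromosomes. On d0, d2 and d4 it was already -0.41, -0.26 and -0.28, against -0.26, -0.05 and -0.01. The part of this shift in the lower Col4a1 and Col4a2 levels was not tested.

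Col4a1 and Col4a2 lie head to head and are transcribed away from each other, and in the annotation used for counting their first exons overlap by 22 bases. These are shown because reads on them can belong to either gene. The overlap is chr8:11312805-11312826 of GRCm38, given 5′ to 3′ on the strand of Col4a2, from RefSeq's promoter table (GRCm38.p6).

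Col4a1 and Col4a2 first exons: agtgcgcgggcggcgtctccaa

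It makes up 0.295% of the exon bases of Col4a1. In Col4a2, these and the bases shared with Gm15419 make up 0.982%. Per kilobase of the deposited gene length, Col4a1 was 1.78, 1.69, 1.55 and 1.53 times Col4a2 on d6 to d12 in shLacZ and 1.8, 1.57, 1.53 and 1.48 times in shDIS3L2. The intervals of the lines overlapped at d6 and d10 but not at d8 (1.67 to 1.71 against 1.55 to 1.59) and d12 (1.51 to 1.54 against 1.47 to 1.5).

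The other type IV chains were higher in shDIS3L2, in contrast to Col4a1 and Col4a2. Col4a5 and Col4a6, a head-to-head pair on the X chromosome, encode chains of a type IV collagen of smooth muscle and some epithelia. Col4a5 was at 0.04, 2.89, 8.57, 39.8, 67.7, 50.4 and 53.6 CPM in shLacZ and at 0.0125, 2.47, 6.96, 67.8, 184, 248 and 219 CPM in shDIS3L2. Col4a6 was at 0.04, 0.534, 5.57, 19.1, 40.4, 23.4 and 32.4 CPM in shLacZ and at 0.0125, 0.232, 4.59, 29.6, 93.5, 116 and 109 CPM in shDIS3L2. From d6 on both were higher in shDIS3L2, Col4a5 by 1.7-, 2.71-, 4.92- and 4.09-fold and Col4a6 by 1.55-, 2.31-, 4.96- and 3.38-fold.

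Col15a1 and Col18a1 encode the multiplexin collagens of basement membrane zones, and the end of the type XVIII chain is released as endostatin. Col15a1 stayed at 0.0125 to 0.534 CPM in both lines to d6, and was then at 3.34, 1.38 and 2.11 CPM in shLacZ and 5.32, 4.56 and 13.6 CPM in shDIS3L2 on d8, d10 and d12. Col18a1 was at 119, 643, 286, 267, 267, 209 and 222 CPM in shLacZ and at 145, 578, 177, 320, 352, 417 and 264 CPM in shDIS3L2. It was the most abundant collagen in both lines at d0 and d2, with its highest level at d2. Its ratio was 1.99 (1.89 to 2.1) at d10 and at most 1.32 on the other days, and its call by edgeR (log2 fold 0.47) was lost without d8 (or d10).

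Type VI collagen, which forms beaded microfilaments around cells, had some of the largest ratios. Its chains Col6a1, Col6a2 and Col6a3 assemble with each other. Col6a1 was at 0.776, 0.316, 1.94, 6.74, 15, 40 and 47.5 CPM in shLacZ and at 1.17, 0.287, 1.56, 23.1, 86.7, 503 and 738 CPM in shDIS3L2. Col6a2 was at 0.104, 2.06, 1.46, 1.38, 3.27, 12.5 and 20.8 CPM in shLacZ and at 0.0627, 1.71, 3.21, 7.26, 31.8, 284 and 560 CPM in shDIS3L2. Col6a3 was at 0.04, 0.752, 0.356, 3.85, 27.7, 48.9 and 49.9 CPM in shLacZ and at 0.0125, 0.669, 0.289, 28.2, 178, 660 and 829 CPM in shDIS3L2. All 3 chains were close to the floor or low in both lines to d4 and higher in shDIS3L2 on each day from d6.

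At d12 the ratio was 15.5 (14.1 to 17.2) for Col6a1, 27 (23.4 to 31.4) for Col6a2 and 16.6 (15.1 to 18.3) for Col6a3. The log2 fold of Col6a2 over d6 to d12 was 4.14 with a standard error of 0.32 (edgeR quasi-likelihood test, Benjamini-Hochberg adjusted p = 0.000466), the largest of the 36 collagens tested. Per kilobase, Col6a1 was 4.36 (3.66 to 5.19) times Col6a2 in shLacZ and 2.5 (2.42 to 2.59) times in shDIS3L2 at d12. The same ratio was 6.12 (4.82 to 7.81) and 3.37 (3.26 to 3.48) at d10, so the proportion of these chains differed between the libraries by more than counting error on both days. With the length of the coding transcript in place of the deposited gene length, the ratios at d12 were 2.6 and 1.49, since this changes both lines by the same factor of 0.597. By contrast, Col6a1 was 2.6 and 2.43 times Col6a3 at d12.

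The other type VI chains behaved differently. Col6a4 was at 0.328, 22.7, 1.78, 0.106, 0.282, 0.709 and 0.905 CPM in shLacZ and at 0.364, 17.4, 0.51, 0.665, 0.128, 0.542 and 2.3 CPM in shDIS3L2, so it was above 3 CPM only at d2, in both lines. Col6a5 and Col6a6 were also highest at d2, at 7.55 and 3.34 CPM and at 1.28 and 1.21 CPM in shLacZ and shDIS3L2. These 3 genes are neighbours on chromosome 9 and were too low on d6 to d12 to be tested.

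The 3 type VI chains and Col1a2 and Col3a1 were at least 10-fold higher in shDIS3L2 at d12 with at least 500 CPM, as were Col1a1 and Col5a2. RefSeq's promoter table (GRCm38.p6), which matched 33 of the 41 collagens, holds a window of 250 bases before and 50 bases after the transcription start for the former 5. Of each, the longest stretch of the window that is free of annotated exons is shown, because these genes shared this large ratio. The stretches of the other 4 genes end at the start of the annotated gene. That of Col1a2 ends at an annotated exon and lies inside the annotated gene, which begins further upstream, at position 4504814. The stretches of Col1a2 and Col6a1, of 123 and 126 bases, end before the transcription start of their windows. Capitals mark matches, on either strand, to 3 motifs, none of which overlaps another in the bases shown. The TATA box was searched with the letters TATAAA. The second motif was CCAAT, the box of that name. The GC box was searched as GGGCGG. Sequences are 5′ to 3′ on the strand of the gene: Col1a2, chr6:4505370-4505492 (plus); Col3a1, chr1:45311288-45311537 (plus); Col6a1, chr10:76726169-76726294 (minus); Col6a2, chr10:76623631-76623880 (minus); Col6a3, chr1:90843972-90844221 (minus).

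Col1a2: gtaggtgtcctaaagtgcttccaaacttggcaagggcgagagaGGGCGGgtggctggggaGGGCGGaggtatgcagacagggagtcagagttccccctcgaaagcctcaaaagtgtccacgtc
Col3a1: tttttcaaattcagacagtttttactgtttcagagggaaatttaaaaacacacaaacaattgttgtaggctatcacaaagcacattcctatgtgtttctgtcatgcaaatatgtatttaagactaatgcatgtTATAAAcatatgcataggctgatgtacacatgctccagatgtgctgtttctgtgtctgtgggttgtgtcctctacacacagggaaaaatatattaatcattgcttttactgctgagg
Col6a1: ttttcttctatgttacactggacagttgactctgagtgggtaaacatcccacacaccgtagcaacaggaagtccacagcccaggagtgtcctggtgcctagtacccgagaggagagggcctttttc
Col6a2: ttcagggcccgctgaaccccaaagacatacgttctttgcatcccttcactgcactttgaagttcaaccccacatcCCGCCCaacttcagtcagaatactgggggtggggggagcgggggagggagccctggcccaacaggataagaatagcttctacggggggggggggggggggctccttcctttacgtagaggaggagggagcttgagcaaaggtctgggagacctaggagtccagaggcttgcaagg
Col6a3: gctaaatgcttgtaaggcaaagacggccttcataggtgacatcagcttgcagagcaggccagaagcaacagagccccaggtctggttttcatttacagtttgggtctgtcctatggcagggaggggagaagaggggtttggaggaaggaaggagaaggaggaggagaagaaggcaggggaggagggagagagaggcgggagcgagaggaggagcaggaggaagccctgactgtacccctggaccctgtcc

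None of these motifs occurred in all 5 sequences. In the bases shown, Col1a2 holds 2 GC boxes, Col6a2 holds 1 and Col3a1 holds 1 TATA box, while these letters do not occur in those of Col6a1 and Col6a3. The TATA box of Col3a1 begins 117 bases from the end of the bases shown. The window of Col1a2 extends past the bases shown, to position 4505667, and also holds a CCAAT box outside them. GC content ran from 35.2% in Col3a1 to 59.3% in Col1a2. Over the whole windows, a GC box occurred in 23 of the 36 windows of collagens (63.9%) and in 35.7% of the 32851 windows of the table. A CCAAT box occurred in 36.1 and 37.4%, and a TATA box in 11.1 and 13.6%.

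The FACIT collagens, which sit on the surface of fibrils, were mixed. Col12a1 was at 0.04, 1.71, 1.15, 9.71, 9.25, 18.8 and 13.5 CPM in shLacZ and at 0.0125, 1.6, 0.73, 44.6, 66.9, 131 and 149 CPM in shDIS3L2, and was 4.59- to 11.1-fold higher from d6 on. Col14a1 was at 0.104, 1.8, 6.84, 2.23, 7.86, 11.9 and 13.3 CPM in shLacZ and at 0.0627, 0.941, 4.48, 2.26, 56.9, 78.8 and 108 CPM in shDIS3L2. Col16a1 was at 0.232, 3.32, 3.99, 1.3, 3.54, 5.84 and 4.42 CPM in shLacZ and at 0.464, 2.31, 2.72, 1.94, 37.3, 75 and 84 CPM in shDIS3L2. Unlike Col12a1, these 2 genes did not differ detectably at d6 (ratios 1.01 and 1.5) but were 7.24- and 10.5-fold higher at d8 and 8.15- and 19-fold higher at d12.

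Type IX collagen coats the fibrils of cartilage. Col9a1 was at 0.008, 0.185, 2.09, 5.55, 7.39, 2.87 and 3.32 CPM in shLacZ and at 0.0125, 0.177, 4.86, 5.77, 21.6, 48.8 and 26.8 CPM in shDIS3L2. Col9a2 was at 4.26, 6.07, 2.57, 1.64, 8.32, 10.7 and 10.1 CPM in shLacZ and at 2.62, 5.47, 4.09, 0.771, 22.9, 32 and 47.2 CPM in shDIS3L2. Both had intervals above 1 from d8, with ratios of 2.92, 17 and 8.08 for Col9a1 and 2.76, 3 and 4.66 for Col9a2, but in edgeR their calls were lost when d8, d10 or d12 was left out. The third chain, Col9a3, stayed at 1.74 to 5.64 CPM and was not called (log2 fold -0.20, standard error 0.32).

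Col22a1, a collagen of tissue junctions, was at 2.79, 4.07, 5.57, 5.29, 6.26, 8.13 and 4.31 CPM in shLacZ and at 1.72, 1.71, 4.37, 14.5, 22.8, 18.8 and 10.6 CPM in shDIS3L2, with the largest ratio, 3.64, at d8. Col20a1 was at 5.26, 0.709, 2.57, 2.74, 2.74, 4.35 and 9.02 CPM in shLacZ and at 10.7, 0.778, 0.455, 1.3, 2.01, 4.03 and 7.99 CPM in shDIS3L2. It was lower in shDIS3L2 at d4 and d6 (ratios 0.177 and 0.475) and was not called by edgeR. Col19a1 was at most at 1.89 CPM, in shDIS3L2 at d4, where it was the only higher collagen, with 34 reads against 2 in shLacZ, a ratio of 5.31 (1.52 to 50.9).

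The transmembrane collagens, which are anchored in the cell membrane, all reached their d6 to d12 maximum in shDIS3L2. Col13a1 was at 3.85, 1.93, 12.4, 7.84, 3.8, 4.76 and 5.73 CPM in shLacZ and at 3.17, 1.21, 20.8, 7.47, 11, 27.8 and 31.2 CPM in shDIS3L2. Col23a1 was at 0.584, 0.491, 11.6, 14.7, 24.9, 9.48 and 13.6 CPM in shLacZ and at 0.213, 0.45, 14.8, 35.5, 40.1, 29.4 and 62.1 CPM in shDIS3L2. Col25a1 was at 0.008, 0.36, 4.31, 1.89, 2.08, 2.19 and 2 CPM in shLacZ and at 0.0125, 0.232, 2.27, 2.37, 3.44, 21.7 and 39.1 CPM in shDIS3L2. Col25a1 had ratios of 1.65 at d8, 9.91 at d10 and 19.5 (12.4 to 33.8) at d12, while Col13a1 was at 0.953 at d6 and 2.88, 5.85 and 5.44 afterwards. Col17a1, a collagen of epithelial hemidesmosomes, did not exceed 3.29 CPM.

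Of the network collagens, Col8a2, known from the membranes beneath endothelia, was at 0.04, 1.32, 1.15, 0.957, 2.94, 1.25 and 1.34 CPM in shLacZ and at 0.0627, 1.05, 1.01, 7.58, 17, 23.4 and 21.8 CPM in shDIS3L2. It was 7.92-fold (4.25 to 16.9) higher at d6 and 16.2-fold (9.25 to 32.5) at d12. Its partner Col8a1 did not exceed 6 CPM, its level in shDIS3L2 at d8. Col10a1, the collagen of hypertrophic cartilage, had 0 reads in the 14 libraries.

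The remaining collagens include the exceptions to the general direction. Col27a1, a fibril-forming collagen of cartilage that the type numbers above do not include, was at 4.3, 8.25, 23.4, 32, 51.8, 59.2 and 39.6 CPM in shLacZ and at 3.53, 6.23, 22.5, 16.6, 27.2, 35.2 and 42.6 CPM in shDIS3L2. It was lower in shDIS3L2 at d6, d8 and d10 (ratios 0.52, 0.526 and 0.595) but not at d12 (1.07, 0.93 to 1.24), and its log2 fold was -0.64 (standard error 0.18, Benjamini-Hochberg adjusted p = 0.0274 by edgeR), a call lost without d8 (or d10). Col7a1, of the anchoring fibrils of skin, was at 1.83, 8.95, 13.8, 6.23, 2.67, 5.03 and 3.98 CPM in shLacZ and at 3.33, 9.07, 8.67, 10, 5.03, 3.82 and 6.54 CPM in shDIS3L2. Neither line was steadily higher, and edgeR did not call it (adjusted p = 0.16). Col26a1 was at 8.52, 1.28, 2.25, 12.7, 9.25, 4.76 and 4.09 CPM in shLacZ and at 10.5, 1.81, 3.16, 20.5, 12.9, 11 and 17.5 CPM in shDIS3L2, and was past the 3-fold criterion only at d12, at 4.29 (3 to 6.33). Col24a1 and Col28a1 did not exceed 4.16 and 1.27 CPM. Of these, Col24a1 was called higher by edgeR (log2 fold 2.18, standard error 0.42), a call lost over all 7 days and with d6 and d12 alone.

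**Figure D4:**
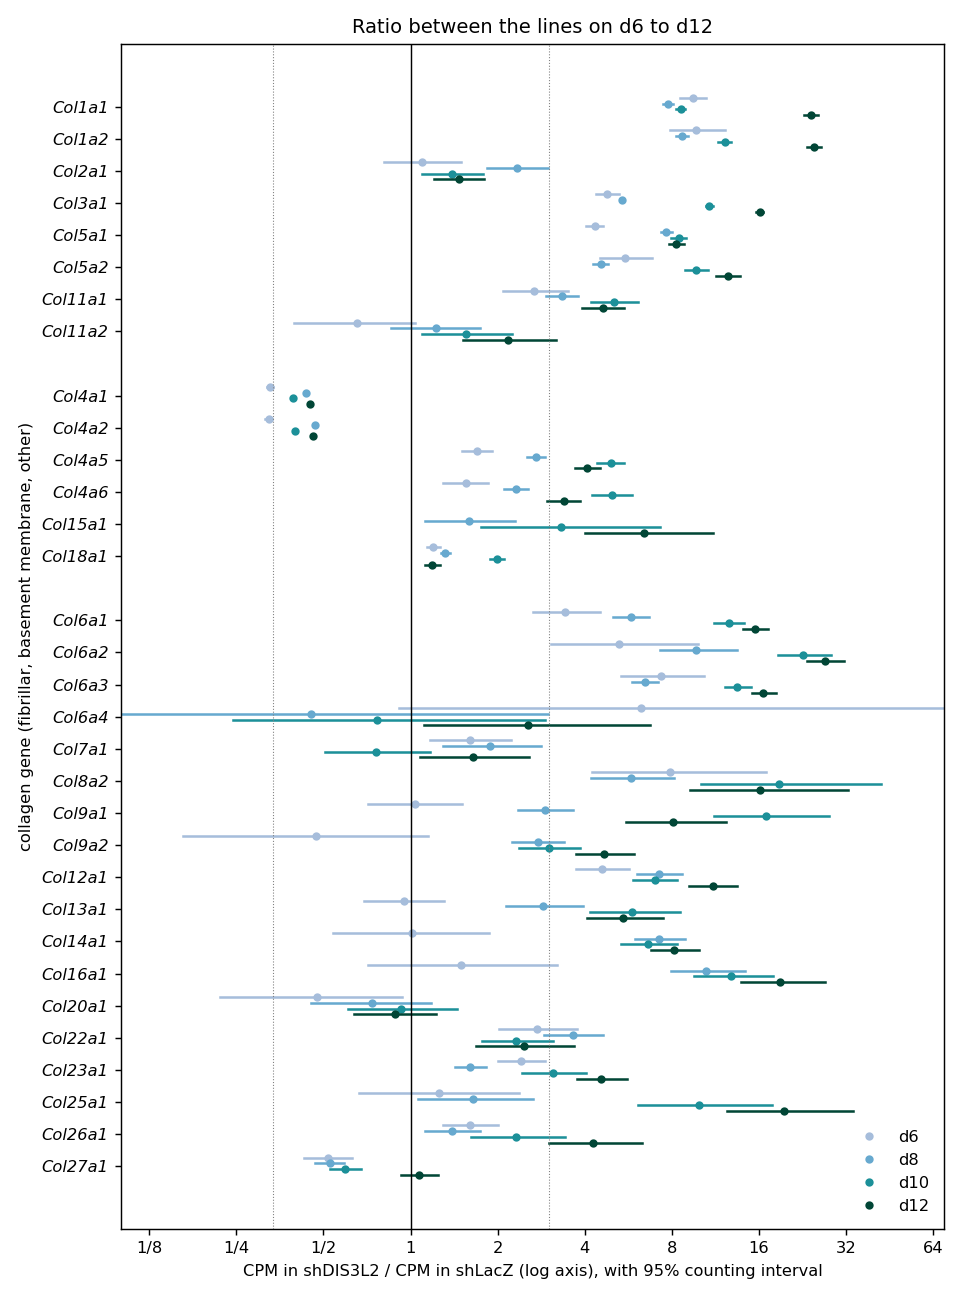
CPM in shDIS3L2 divided by CPM in shLacZ (x axis, log scale) on d6, d8, d10 and d12 for the 32 collagens with at least 10 CPM in 1 library (y axis), with the 95% interval for counting error, and dotted lines at 3-fold; values with a bound of 0 or no upper bound are left out. At d12 Col6a2, Col1a2 and Col1a1 lie at 27, 24.8 and 24.2, and Col4a1 and Col4a2 at 0.449 and 0.461.

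The genes that act on collagens were taken from lists of enzymes, export factors and receptors. Of 19 genes for folding and modification of the chains, 7 were called higher and 7 lower by edgeR over d6 to d12, against 19.6% and 18.7% of all genes tested, which also applies to the next 3 lists. Serpinh1, which encodes the collagen chaperone HSP47, was at 749, 1177, 1736 and 2176 CPM in shLacZ and 763, 1317, 1723 and 1914 CPM in shDIS3L2 on d6, d8, d10 and d12, with a log2 fold of -0.01 (standard error 0.08). P4hb, a subunit of prolyl 4-hydroxylase, was at 1081, 1338, 1519 and 1853 CPM in shLacZ and 913, 1155, 1304 and 1564 CPM in shDIS3L2, and Sparc, a collagen-binding matrix protein, at 2023, 3538, 5385 and 6316 CPM and at 1155, 2370, 3668 and 4288 CPM. Both were lower in shDIS3L2 on each of these days, with log2 folds of -0.24 and -0.63. Ppib, which isomerises prolines of the chains, was higher on each of them, at 312, 311, 303 and 342 CPM against 382, 423, 451 and 413 CPM.

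Of the 5 lysyl oxidases, which crosslink collagen, 4 were called higher and 0 lower by edgeR. Lox was at 0.0213, 0.349, 2.87 and 2.44 CPM in shLacZ on d6 to d12 and at 0.239, 3.32, 47.8 and 46.8 CPM in shDIS3L2, and Loxl1 at 4.53, 6.33, 4.62 and 3.1 CPM and at 18.5, 37.1, 45.3 and 37.8 CPM. Their log2 folds were 4.03 and 2.83 (standard errors 0.22 and 0.25). Loxl2, the most abundant of the family, was at 87.9, 216, 286 and 355 CPM in shLacZ and 94.9, 375, 393 and 360 CPM in shDIS3L2 and was not called, while Loxl3 had a log2 fold of 1.68.

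Of 14 genes for export and processing of procollagen, 13 were tested, 6 were called higher and 2 lower. Sec23a, a coat protein of the vesicles that leave the ER, was at 109, 148, 139 and 158 CPM in shLacZ and at 157, 181, 229 and 175 CPM in shDIS3L2, with a log2 fold of 0.41. Mia2, a cargo receptor at ER exit sites, was called lower, at 135, 144, 129 and 129 CPM against 92.5, 90.3, 94.6 and 89.8 CPM, with a log2 fold of -0.55. These 2 genes thus differed in opposite directions. Pcolce, which enhances cleavage of the C-terminal propeptide, was at 26.1, 37, 25.9 and 25.4 CPM in shLacZ and at 69.9, 245, 264 and 189 CPM in shDIS3L2. Bmp1, the protease that makes this cut, was at 118, 96, 92.5 and 81.4 CPM and at 197, 194, 208 and 247 CPM. Both were higher in shDIS3L2 on each day, with log2 folds of 2.60 and 1.12. Pcolce2, of the same list, was called lower, with a log2 fold of -1.35 (standard error 0.31). It was at 6.23, 4.4, 3.68 and 4.31 CPM in shLacZ and at 4.07, 1.04, 0.965 and 2.3 CPM in shDIS3L2. Of 9 collagen receptors and uptake genes, 7 were tested, 5 were called higher and 0 lower. Ddr2, a receptor for fibrillar collagens, was at 0.701, 5, 6.24 and 6.61 CPM in shLacZ and at 2.37, 35.5, 55.6 and 69.2 CPM in shDIS3L2, and Mrc2, an endocytic collagen receptor, at 32.1, 33.8, 23.4 and 24.2 CPM and at 94.3, 206, 204 and 205 CPM. Ddr1, the related receptor of epithelia, had the smaller log2 fold of 0.33 (standard error 0.06), and Itga1, an integrin subunit, one of 0.96.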

How the data were processed

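RNA-seq of polyA RNA was deposited for 14 libraries, 1 for each line and day. The authors aligned reads to GRCm38 (Ensembl release 88) with Subread 1.6.3 and deposited whole read counts per gene from featureCounts 1.6.3, without normalization. The CPM values deposited by the authors, made with edgeR, equalled the count plus 0.25 over the total of the listed genes, without scaling between libraries. They list protein-coding genes without low ones, by a criterion not given in the sources used here.

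Levels are the deposited CPM. Ratios carry 95% Clopper-Pearson intervals. These and the floor of 3 counts cover counting error only, because PCR copies of 1 molecule cannot be told from separate molecules here. Collagens, the lists and their criteria were chosen with earlier results of these data known. Collagens reaching 10 CPM in a library, and at most 4 genes of each list (those with the highest mean CPM), were named. Thy1 and Gata6 were added because their log2 folds were opposite to those of the called markers of their lists. Pcolce2 was added because it was called in the direction opposite to Pcolce. The lists hold genes for folding, export, crosslinking and receptors, and markers of mesenchyme, parietal and visceral endoderm, cartilage, bone, endothelium, neural cells, cardiomyocytes and undifferentiated ESCs.

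The test was edgeR 4.0.16 in R 4.3.3 (quasi-likelihood, TMM, filterByExpr, Benjamini-Hochberg), tested on simulated data, with DESeq2 1.42.0 as an alternative. Other steps used Python 3.11.15, numpy 2.4.6, pandas 2.3.3, scipy 1.17.1 and matplotlib 3.10.9. Alternatives were other scaling, other minimum CPM, no filter, all 7 days and leaving out each late day. The fit of d6 and d12 alone and the length of the coding transcript in chain ratios were added after seeing the data.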

Additional observations from a re-analysis of the deposited data

Results flagged for a closer look

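Col5a1 was singled out because the direction of its difference turned within the time course: its ratio of shDIS3L2 to shLacZ was 0.604, 0.74 and 0.555 on d0, d2 and d4 and 4.33, 7.67, 8.45 and 8.29 on d6, d8, d10 and d12. The difference between the early and the late days was not tested.

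Col4a4, which encodes a type IV chain of the kidney glomerulus, is outside the CPM table. It had 16 reads in the 4 shDIS3L2 libraries of d6 to d12 and 1 in those of shLacZ, a ratio of 12.5 with a 95% counting interval of 1.94 to 524. Col4a3, its partner chain, had 5 and 2 reads.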

How the results depend on the processing

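At least 3-fold higher collagens at d0 numbered 1 with TMM or DESeq2 scaling. With no minimum CPM, 5 were at least 3-fold lower at d0, 4 at d6 and 2 at d8. With a minimum of 5 CPM, 0 were higher and 2 lower at d4. TMM put the median log2 ratio of the fibrillar collagens at d12 at 2.96. The ratio of the summed fibrillar level was 5.69 with TMM and 5.91 with DESeq2 scaling at d8, 9.56 with TMM at d10, and 15.8 and 15.9 at d12. For the basement membrane collagens the ratio by deposited CPM was 0.494, 0.432 and 0.469 on these days. TMM and DESeq2 scaling gave 0.466 and 0.484 at d8, 0.413 and 0.427 at d10, and 0.441 and 0.444 at d12. For the other collagens the ratio by deposited CPM was 3.42 at d8 and 11.1 at d12. TMM gave 3.23 at d8, and the 2 scalings 10.4 and 10.5 at d12.

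By edgeR, 8 collagens were higher over all 7 days, and 0 higher and 0 lower with d6 and d12 alone, where no gene was called. Leaving out a late day gave 18 (without d10) to 29 (without d6) higher and 2 to 3 lower. The cause was not tested. Of the edgeR log2 folds of the named collagens under the alternatives, 68 fell short of a threshold they had passed, 1 newly passed it, 210 kept their side and 0 changed sign. The labels carry no replicate numbers, so lines were paired by day alone, as the block of each edgeR fit. With coding transcript lengths, 16 of the ratios between chains at d12 moved beyond their intervals and 5 did not, by a factor that is the same in both lines. Calls lost over all 7 days include those of Col1a1, Col3a1 and Col5a1. Depth limits collagens below about 1 CPM, where the floor reached 0.474 CPM in the shallowest library.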
